A study of Homo sapiens with 28 samples.

Results

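Small nucleolar RNA host genes are the genes named SNHG and a number, together with GAS5. GENCODE release 44 lists 29 of them among 62663 genes on chromosomes 1 to 22, X and Y of hg38. A peak was counted for a host gene when its summit lay between 1000 bases upstream of the gene start and the gene end, on the strand of the gene. By this rule 233 of 496678 peaks belonged to a host gene, and 12 of the 29 genes held at least 1 peak in at least 1 library.

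The peaks mark N6-methyladenosine (m6A) on caRNA, short for chromatin-associated RNA, which remains bound to chromatin when nuclei are fractionated. Ribosomal RNA was removed, m6A-bearing fragments were pulled down with an antibody kit, and each immunoprecipitated (IP) library has its own peak list. The 14 IP libraries fall into 6 groups. Unmodified cells were sampled as HepG2 WT, a hepatoma line, and K562 WT, a myelogenous leukaemia line, with 2 libraries each. The other groups were K562 Control and K562 RBFOX2 KD, with 2 libraries each, and NB4 Control and NB4 RBFOX2 KD, with 3 libraries each. NB4 is an acute promyelocytic leukaemia line. Per the study, Control and knockdown (KD) cells were made with lentiviral short hairpin RNAs, a non-targeting one in Control and one against the RNA-binding protein RBFOX2 in KD, and the labels do not say which RBFOX2 hairpin a library carried. The methods of the study speak of biological replicates, while the labels number the libraries without naming separate cultures, so p-values measure the spread between these libraries.

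Small nucleolar RNAs (snoRNAs) guide chemical modification of ribosomal RNA, as box C/D snoRNAs for 2′-O-methylation and box H/ACA snoRNAs for pseudouridylation. Most human snoRNAs are cut from introns of a host transcript after splicing, so a host gene makes both a spliced RNA and stable small RNAs. Many spliced host RNAs, GAS5 among them, carry short open reading frames and are removed by nonsense-mediated decay in the cytoplasm. A few hosts carry small Cajal body RNAs (scaRNAs), which guide modification of spliceosomal RNAs.

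The 29 genes hold 154 snoRNA or scaRNA genes on their strand, of which 84 lie in SNHG14. Lists ran from 22700 to 44088 peaks, and host genes took 10 to 21 of them, or 0.0363% to 0.0642%. Markers of the labelled lines were checked by the presence of a peak. Of 9 hepatocyte markers, 3 had a peak in both HepG2 libraries and 7 had peaks in HepG2 libraries only, while ALB and AFP had none. Of 9 erythroid markers, 7 had a peak in all 6 K562 libraries and 7 had peaks in K562 only, while EPOR was in all 14 lists and GATA1 also in the 3 NB4 KD lists. Of 9 promyelocyte markers, 7 had a peak in all 6 NB4 libraries and 5 had peaks in NB4 only, AZU1, CSF3R and SPI1 were also listed in other lines, and ELANE had none.

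The summits of 5 regions lay on the sequences that follow. Each window below holds the 101 bases centred on the strongest summit of a region, read from hg38 on the strand of the gene, 5′ to 3′. Capitals mark GGAC, the core of the most common m6A context, and a window without capitals does not hold those 4 letters. The first 3 windows carry peaks that recurred in 12 or more libraries, and the last 2 those listed by cell line.
SNHG16, last exon, chr17:76563248-76563348, plus strand: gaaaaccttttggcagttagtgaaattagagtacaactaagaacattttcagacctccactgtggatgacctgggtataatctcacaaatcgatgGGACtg
SNHG22, SCARNA17, chr18:49814136-49814236, plus strand: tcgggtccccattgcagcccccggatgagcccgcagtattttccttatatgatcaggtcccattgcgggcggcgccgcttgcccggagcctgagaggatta
SNHG26, 3′ part of the gene, chr7:22869348-22869448, plus strand: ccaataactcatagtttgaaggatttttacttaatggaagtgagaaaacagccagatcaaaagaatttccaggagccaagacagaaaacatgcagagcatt
SNHG21, first exon, chr15:82750580-82750680, plus strand: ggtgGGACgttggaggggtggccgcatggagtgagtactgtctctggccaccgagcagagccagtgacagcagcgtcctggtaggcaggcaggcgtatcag
SNHG14, 5′ part of the gene, chr15:24988471-24988571, plus strand: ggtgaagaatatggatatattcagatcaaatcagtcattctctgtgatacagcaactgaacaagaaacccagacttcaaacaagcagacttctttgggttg
GGAC, searched on the gene strand only, was present in the windows of 17 of 39 host gene regions (43.6%) and in 48.6% of the windows of all 496678 summits. The longer GGACT, which contains GGAC, was in 8 of 39 regions (20.5%) and in 18.6% of all windows. TGCATG, the letters RBFOX2 is known to bind, was in 1 region, against 2.40% of all windows, and AGATG was in 4 regions (10.3%), against 15.96%. Summit by summit, the 233 host gene windows held GGAC in 49.4%, GGACT in 18.9%, TGCATG in 0.429% and AGATG in 12.0%. Many of these summits are the same region in several libraries, and a match describes letters only.

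Of the 29 host genes, 17 had no peak on their strand in any library. GAS5, a host of box C/D snoRNAs and a regulator of glucocorticoid signalling and growth arrest, was listed in 0 of 14 libraries. The others were SNHG1, SNHG3, SNHG4, SNHG6, SNHG8, SNHG9, SNHG11, SNHG15, SNHG17, SNHG18, SNHG19, SNHG25, SNHG27, SNHG28, SNHG31 and SNHG32. With GAS5 at 0 in every library, no gene could be ranked by likeness to it. The lists hold peaks and no input levels, so a transcript that was absent or low and a transcript without m6A cannot be told apart.

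At 41.4%, the share of host genes with a peak in at least 1 library lay between that of the other long non-coding RNA (lncRNA) genes, 20.1% of 18837, and that of protein-coding genes with a snoRNA on their strand, 79.3% of 275. For all genes it was 29.3%. The classes differ in length, with a median of 6851 bases for host genes, 6273 for other lncRNA genes and 53553 for the protein-coding hosts. Within the 29 genes, the 12 with a peak had a median length of 16007 bases and the 17 without had 5159. Of the listed genes 8 were longer than 10000 bases, and of the others 6 were. The plot of length against libraries shows no strict order, since SNHG31 with 153395 bases had no peak and SNHG12 with 4595 bases was listed 3 times.

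**Figure D1:**
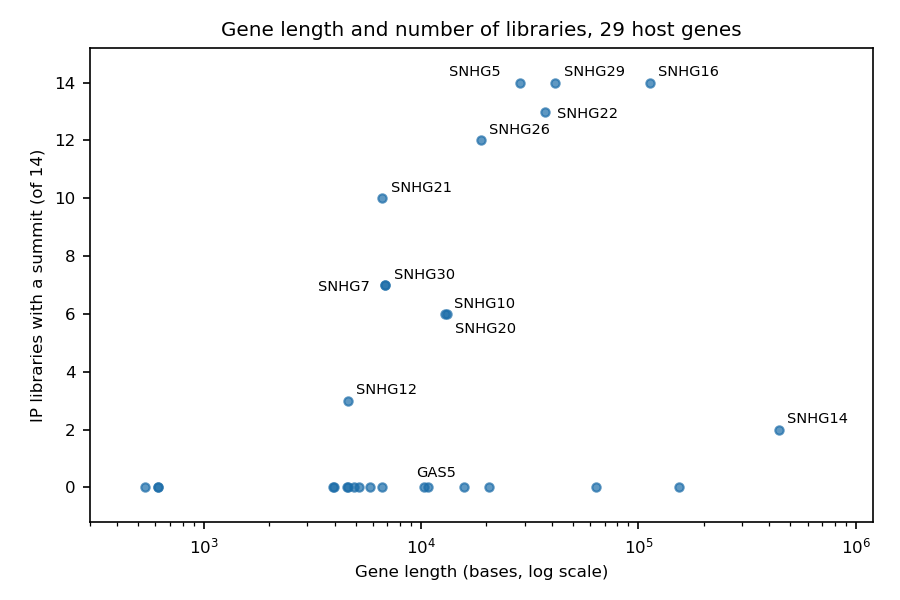
Gene length in bases (x axis, log scale) and the number of IP libraries, of 14, with a summit (y axis) for the 29 host genes, 1 point per gene. SNHG5, SNHG16 and SNHG29 reach 14 libraries, and 17 genes, GAS5 among them, lie at 0.

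Host gene peaks lay inside the genes. Of the 233 summits, 0 lay in the 1000 bases upstream of a gene start, 181 (77.7%) lay in an exon of some annotated transcript and 52 (22.3%) in an intron. The place depends on the transcript used. Against the single transcript with the most exons, 61 summits (26.2%) fell in its exons, 127 (54.5%) in its introns and 45 (19.3%) beyond its ends. The hosted small RNAs were mostly distant from the summits, with a median of 7466 bases. Summits within 250 bases of a snoRNA or scaRNA numbered 23 (9.87%) and came from 4 genes, SNHG10, SNHG12, SNHG14 and SNHG22. Overlapping peaks merged into 39 regions, of which 2 were present in all 14 libraries and 9 in 12 or more.

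The strongest peak of a gene in a library is called its leading summit. Its rank percentile is the percent of all summits in that library with a lower -log10 q, so 99 means that 99% of the library's summits ranked below it. In all 14 lists were 3 genes, SNHG16, SNHG29 and SNHG5, and they held 147 of the 233 summits (63.1%). The background for this pattern is 32.0% of the 18356 genes with a peak in any library. With lists cut to equal sizes, 2 host genes kept a summit in every list, among 4741 of all genes.

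**Figure D2:**
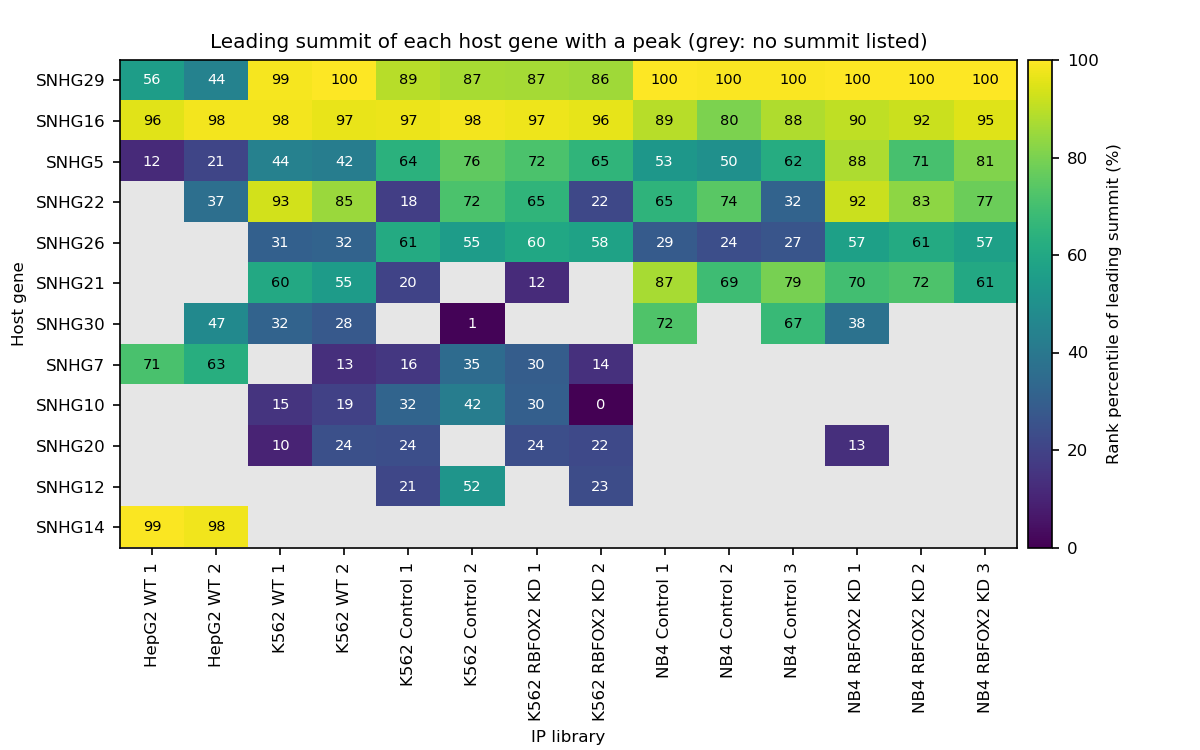
Rank percentile of the leading summit (colour and printed value, in %) for the 12 host genes with a peak (rows) in the 14 IP libraries (columns), with grey where none was listed. SNHG16 and SNHG29 stay high in most libraries, SNHG14 appears in HepG2 only and SNHG10 in K562 only.

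SNHG16 (ENSG00000163597.17, chr17:76557727-76670985, plus strand) hosts SNORD1A, SNORD1B and SNORD1C. Its leading summit lay in 1 region in every library, chr17:76563111-76563614 in exon 6 of 6, downstream of the snoRNAs. The percentile was 95.7 and 98.2 in HepG2 WT, 98.3 and 96.7 in K562 WT, 96.9 and 98.4 in K562 Control, and 97.3 and 96.1 in K562 KD. The NB4 libraries gave 89.4, 80.3 and 88.2 for Control, then 90.4, 91.8 and 95 for KD. All 6 NB4 values lay below all 8 values of HepG2 and K562, which overlapped one another. Over the 6 groups the order of means was K562 Control (97.6 ± 1.04, SD, n = 2), K562 WT (97.5 ± 1.18, n = 2), HepG2 WT (96.9 ± 1.78, n = 2), K562 KD (96.7 ± 0.826, n = 2), NB4 KD (92.4 ± 2.37, n = 3) and NB4 Control (86.0 ± 4.92, n = 3). The first 4 neighbours differed by less than their spread.

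The fold of that summit, the authors' ratio of IP signal to local background, told WT lines apart where ranks did not. It was 4.86 and 6.91 in HepG2 WT, and 24.5 and 22.1 in K562 WT. On the log2 scale, with each library centred on its median gene, K562 WT exceeded HepG2 WT by 0.79 ± 0.22 (SE), with an adjusted p of 0.0393 from limma over 5878 genes. SNHG16 was the 1 host gene called of 3 tested in this comparison, where 8.76% of all genes were called. The call was lost without either HepG2 WT or either K562 WT library, at an adjusted p of 0.0939 to 0.244, without K562 KD 1 (0.0584) or K562 KD 2 (0.0566), with lists cut to equal sizes (0.0565) and with the replicate number as a block (0.102), all by limma. On the logit of the rank percentile the difference turned to -0.78. Reads in both HepG2 lists were assumed to be rescaled, and the local background there was 50.7 and 55.8 reads against 15.0 and 14.6 in K562 WT. The part of that background in the difference was not tested. SNHG29 and SNHG5 were not called, with log2 differences of 0.72 ± 0.30 (SE) and -0.45 ± 0.34 and adjusted p of 0.142 and 0.442 from the same limma fit.

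SNHG29 (ENSG00000175061.20, chr17:16438767-16480249, plus strand) hosts SNORD49A, SNORD49B and SNORD65 near its 5′ end. It had 87 of the 233 summits in 9 regions, and all of these lay downstream of the snoRNAs. An intronic region in intron 4 was listed in all 14 libraries. NB4 Control cells gave percentiles of 99.9, 99.6 and 99.6, NB4 KD cells 99.7, 99.9 and 99.9, and K562 WT cells 98.7 and 99.6. It was 45.4 and 49.3 in K562 Control, 52.6 and 56.8 in K562 KD, and 55.6 and 44.2 in HepG2 WT. The libraries thus fell in separate ranges, with K562 WT beside NB4 and apart from the other K562 groups. The split within K562 was not particular to SNHG29. Over the whole lists, summits were counted whose 101-base window held at least 95% A or G, as at the strongest summit of this region. They made up 0.295% of all summits and numbered 1 to 4 in each of the 4 K562 Control and KD libraries. They numbered 124 and 125 in K562 WT, 134 to 239 in NB4, and 78 and 73 in HepG2 WT. HepG2 WT, low at SNHG29, thus did not stand with K562 Control and KD in this count. The part of that library-wide difference in the SNHG29 values was not tested.

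**Figure D3:**
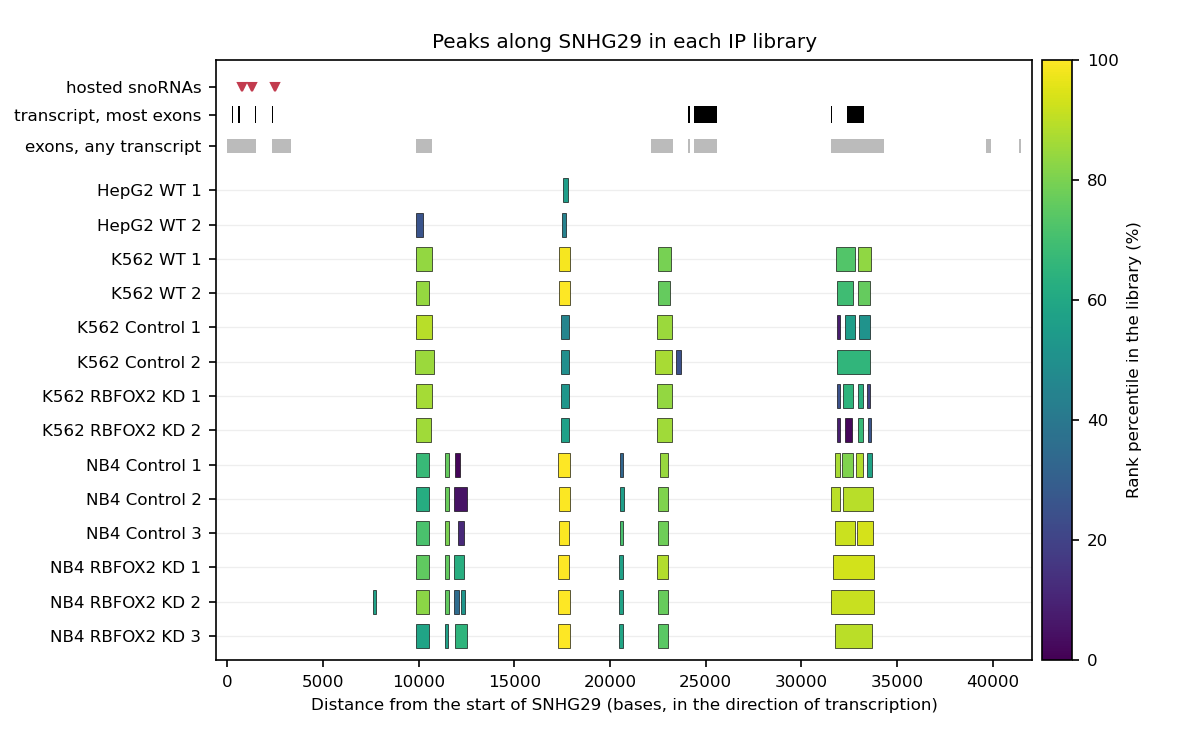
Peaks along SNHG29 in the 14 IP libraries (rows), with the distance from the gene start in bases on the x axis and the rank percentile as colour. Triangles mark the 3 hosted snoRNAs, black bars the transcript with the most exons and grey bars the exons of any transcript. The intronic peak 17584 bases from the start is at 98.7 or above in K562 WT and NB4, and the peaks at 11491, 12307 and 20623 bases appear in NB4 only.

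Other regions of SNHG29 behaved differently between lines. Region chr17:16448582-16449543, an exon of some isoforms, was listed in 13 libraries and led the gene in K562 Control 1 and in both K562 KD libraries, with a percentile of 89.1, 86.6 and 85.9. Intronic regions numbering 3 were listed in all 6 NB4 libraries and in no other. The first, chr17:16450134-16450335, stood at 76.6, 77.2 and 79.9 in Control and at 75.9, 75.9 and 57.2 in KD. The third, chr17:16459252-16459478, stood at 32.7, 55.6 and 70.8 in Control and at 57.4, 58.0 and 58.9 in KD. The middle one, chr17:16450605-16451310, was at 1.23, 4.99 and 11.6 in Control and at 62.7, 52.1 and 65 in KD. Without overlap between groups, the middle region thus lay higher in KD and the first lay lower in KD. In the third region the groups overlapped. No background share was computed for single regions.

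SNHG5 (ENSG00000203875.13, chr6:85650491-85678932, minus strand), host of SNORD50A and SNORD50B, was listed in all 14 libraries with 37 summits in 4 regions. Its leading percentile was 11.8 and 21.0 in HepG2 WT, 44 and 42.4 in K562 WT, 63.8 and 75.7 in K562 Control, and 71.6 and 65.5 in K562 KD. In NB4 it was 52.9, 50.1 and 62.0 in Control and 87.7, 71.0 and 80.9 in KD. HepG2 WT was lowest and NB4 KD highest by mean (16.4 ± 6.47, SD, n = 2, and 79.9 ± 8.4, n = 3), and the K562 Control and K562 KD values overlapped. The leading region was chr6:85673366-85674115, inside the gene, in 10 libraries. In HepG2 WT 1 and K562 WT it was chr6:85678161-85678736, whose strongest summit, in NB4 KD 3, lay 405 bases from the gene start. In NB4 Control 3 an intronic region, chr6:85670821-85670994, led at 62.0, where the usual region stood at 49.1. That intronic region was listed in all 3 NB4 Control libraries, at 28.4, 12.4 and 62.0, and in 0 of the 3 NB4 KD libraries. No background share was computed for it. SNHG5 differences between HepG2 WT and K562 WT, and between NB4 Control and KD, thus mix different peaks. Another gene, ENSG00000271793, covers the same strand, and 1 region lies in PKMP3, a copy of PKM, so these reads cannot be given to SNHG5 alone.

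Some members separated the cell lines by presence. SNHG14 (ENSG00000224078.15, chr15:24978583-25420336, plus strand) is the long, paternally expressed host of the SNORD115 and SNORD116 clusters and runs antisense to UBE3A. It was listed in both HepG2 WT libraries, with 6 and 7 peaks and leading percentiles of 99.2 and 98.0, and in 0 of the 12 others. Across all genes listed anywhere, 4.58% were in both HepG2 lists and no other. Its strongest peaks lay 9938 and 12215 bases from the gene start, where the protein-coding gene ENSG00000214265 overlaps on the same strand, so they cannot be given to SNHG14 alone.

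SNHG10 (ENSG00000247092.9, chr14:95521943-95534889, minus strand), host of SCARNA13, was in all 6 K562 lists and no other, a pattern of 6.17% of listed genes. Its only region, chr14:95533672-95534050 in exon 1 of 3, had its strongest summit 141 bases from SCARNA13. The percentile was 15.0 and 19.2 in WT, 32.4 and 42.2 in Control, and 30.1 and 0.261 in KD. The last of these stands apart, at a pileup of 32 reads. SNHG10 ranked past 22700, the length of the shortest list, in every K562 library except Control 2, where it ranked 22268.

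SNHG26 (ENSG00000228649.11, chr7:22854126-22872952, plus strand), host of SNORD93, was in all 12 K562 and NB4 lists and in neither HepG2 list, a pattern of 4.61% of listed genes. SNHG21 (ENSG00000250988.7, chr15:82750564-82757206, plus strand), host of SCARNA15, was in all 6 NB4 lists and in 4 of 6 K562 lists, and in neither HepG2 list. Being in all 6 NB4 lists and no HepG2 list is a pattern of 10.7% of listed genes. The SNHG21 region covers the first exon, with its strongest summit 66 bases from the gene start, and stood at 87.0, 68.9 and 79.4 in Control NB4 cells and 69.6, 72.0 and 60.5 after knockdown. In K562 it stood at 60.3 and 55.0 in WT, at 20 in Control 1 and at 12.4 in KD 1. All NB4 values lay above all K562 values. Both HepG2 lists are the shortest of the 14, at 22700 and 27438 peaks. SNHG26 ranked 30324 and 29480 in K562 WT, and 24077 and 24494 in NB4 Control 2 and 3. Those ranks lie past the end of the shortest list, while its ranks in the remaining lists lie within that length. The part of list length in these absences was not tested.

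SNHG7 (ENSG00000233016.9, chr9:136721366-136728184, minus strand), host of SNORA17A and SNORA17B, was in both HepG2 lists and in no NB4 list, as were 8.56% of listed genes. HepG2 and K562 had their SNHG7 peaks in different regions. HepG2 WT had its peak at chr9:136721116-136721765 in the last exon, with percentiles of 71.4 and 62.8. The K562 libraries had up to 4 peaks further upstream in the gene, with none listed in WT 1 and leading percentiles of 13.5 in WT 2, 16.1 and 34.9 in Control, and 29.7 and 13.8 in KD. HepG2 lay above K562 in every library. On the opposite strand, in DIPK1B, a summit at 136723898 to 136723916 was listed in every K562 library, at percentiles of 87.2 to 95.7. Neither HepG2 list had a summit on that strand, while the NB4 lists did. The part of that signal in the weaker K562 peaks on the SNHG7 strand was not tested.

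The other 4 genes with peaks were less regular. SNHG22 (ENSG00000267322.4) is described here because, after its values were seen, its region was the only one of 39 whose strongest summit fell within a small RNA. That region, chr18:49814073-49814438, covers SCARNA17 and was listed in 13 libraries. Its reads cannot be given to the SNHG22 host RNA alone. Its percentile was 36.6 in HepG2 WT 2, 93.3 and 84.9 in K562 WT, 18.4 and 71.6 in K562 Control, 65.4 and 21.8 in K562 KD, 65, 74.2 and 31.8 in Control NB4 cells and 92.0, 82.9 and 77.4 in KD NB4 cells. Within K562 Control and within K562 KD the libraries lay far apart. SNHG30, SNHG20 and SNHG12 were listed in 7, 6 and 3 libraries, with percentiles of 0.948 to 72.4, 10.1 to 24.4 and 21.3 to 52.3. The main SNHG20 region also lies in an exon of SEC14L1, and the SNHG12 region had its strongest summit 88 bases from SNORA44.

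The reads behind these peaks can be recovered from the fold and the p-value of each summit. In the 11 libraries where the pileup came out whole, host gene summits held 28 to 645 reads, with a median of 119. At the SNHG29 region in intron 4 the pileup was 606, 560, 633, 645 and 531 reads in the 5 NB4 libraries with whole pileups and 546 and 536 in K562 WT. It was 83, 87, 90 and 96 in the K562 Control and KD libraries. At SCARNA17 the local mean was high in NB4, at 157 and 175 reads in Control 1 and 2 and at 101, 155 and 129 in KD. The pileups there overlapped, at 371 and 448 reads in Control 1 and 2 and at 467, 478 and 388 in KD. The folds were 2.36 and 2.55 in Control 1 and 2, and 4.6, 3.06 and 2.98 in KD. SNHG16's exon had a local mean of 6.37 to 15.5 reads in the same 11 libraries.

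**Figure D4:**
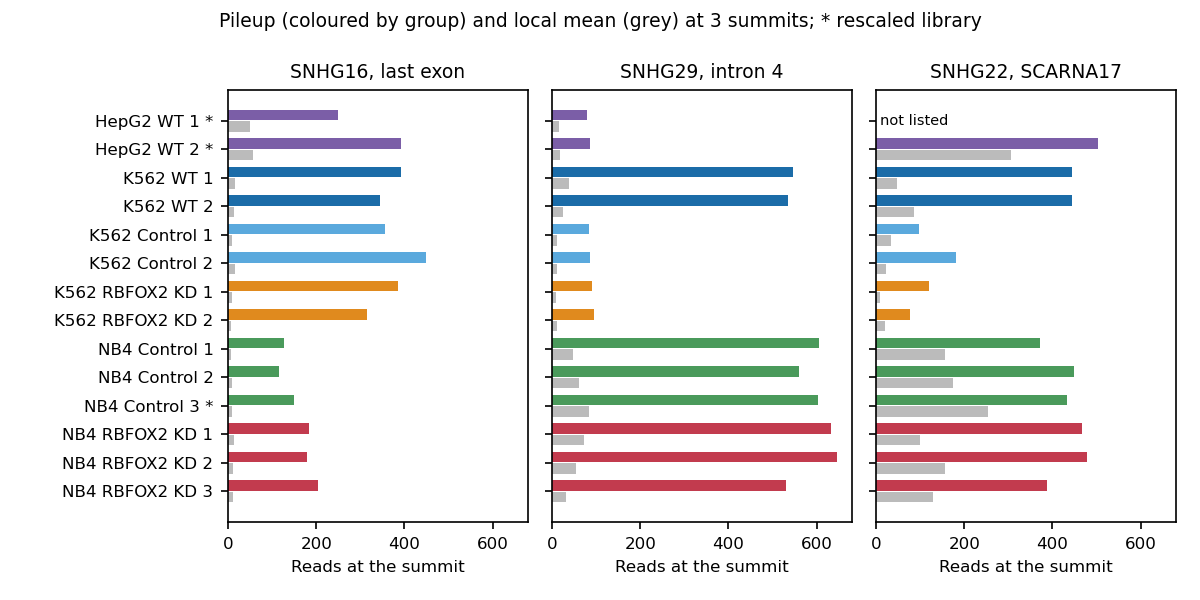
Reads piled up at the summit (bars coloured by group) and the local mean the peak caller used (grey bars), in reads, at SNHG16's last exon, SNHG29's intron 4 and SCARNA17 in SNHG22, per IP library. Asterisks mark the 3 libraries where values are not whole reads and rescaled reads were assumed. The SNHG29 bars fall below 100 in HepG2 WT, K562 Control and K562 KD and exceed 500 elsewhere.

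The knockdown comparison asks whether m6A on these RNAs moved when RBFOX2 was depleted. The lists hold no level of RBFOX2 itself, so the depletion was not checked. In K562 the ranks of 0 of 10 host genes considered lay higher in both KD libraries than in both Control libraries, where 12.0% of all genes did. Those of 2, SNHG10 and SNHG29, lay lower, where 17.1% of all genes did. For SNHG29 this compares leading summits from different regions. Within the region that led in 3 of the 4 libraries the values overlapped, at 89.1 and 84.9 in Control and 86.6 and 85.9 in KD. In the intron 4 region both KD values, 52.6 and 56.8, lay above both Control values, 45.4 and 49.3. The KD 1 summit there, at 16456544, lay apart from those of KD 2 (16456385) and Control (16456348 and 16456359). No share over all regions was computed. In NB4, 4 of 7 lay higher in all KD than in all Control libraries, SNHG5, SNHG16, SNHG22 and SNHG26, against 17.3% of all genes, and 0 of 7 lay lower, against 7.89%. The SNHG22 peak is the one on SCARNA17. These counts use leading summits, and single regions within a gene could go the other way. In NB4 the SNHG5 region chr6:85670821-85670994 was listed in Control only. Of the SNHG29 regions found in NB4 only, chr17:16450134-16450335 lay lower in KD and chr17:16450605-16451310 higher, both without overlap. No host gene moved without overlap in the same direction in both lines, where 2.39% of all genes were higher and 1.06% lower.

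SNHG26 separated the NB4 groups most widely. Its leading percentile was 28.7, 24.2 and 26.5 in Control and 56.8, 61.3 and 56.9 in KD. In K562 it was 61.0 and 55.4 in Control and 59.5 and 57.7 in KD, which overlap, and 30.9 and 31.7 in WT. Its group means were 58.6 ± 1.29 (SD, n = 2) in K562 KD, 58.3 ± 2.55 (n = 3) in NB4 KD, 58.2 ± 3.97 (n = 2) in K562 Control, 31.3 ± 0.625 (n = 2) in K562 WT and 26.5 ± 2.24 (n = 3) in NB4 Control. The first 3 did not differ beyond their spread. In NB4 Control 3 the leading summit lay in another region, with the usual one at 4.24.

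**Figure D5:**
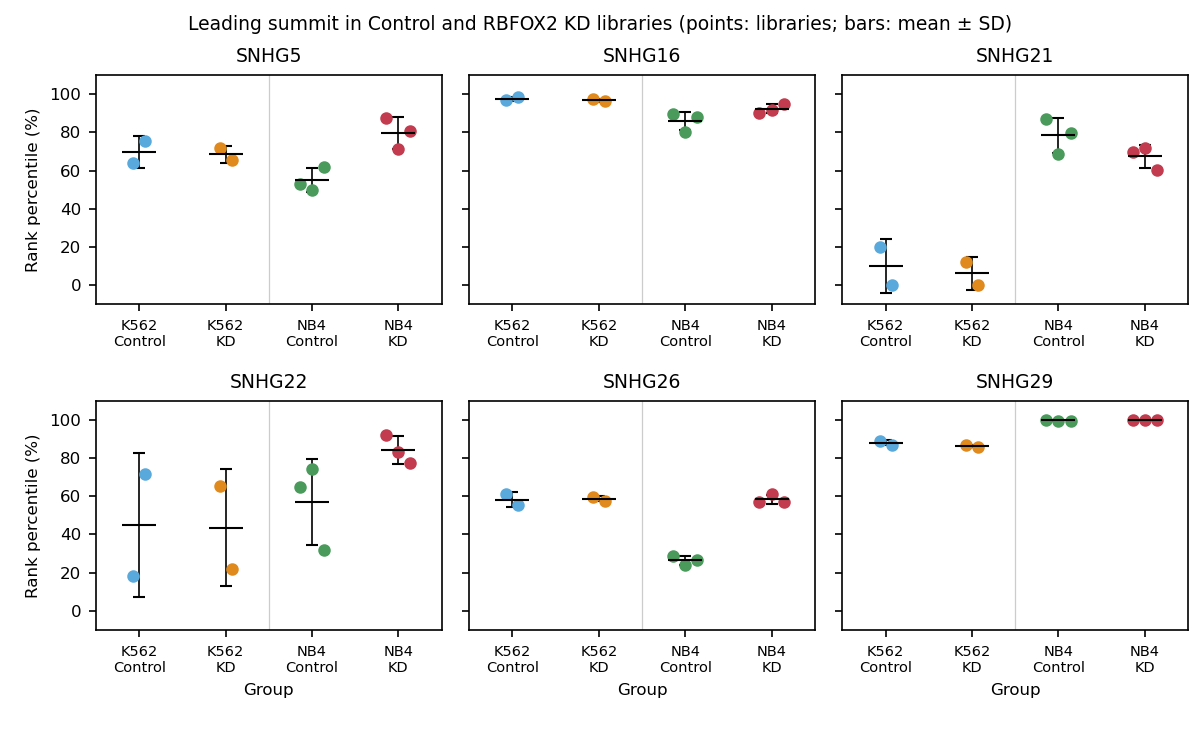
Rank percentile of the leading summit (y axis, %) in K562 and NB4 Control and KD libraries for 6 host genes, with points for libraries, horizontal bars for means and error bars for SD, and 0 where no summit was listed. NB4 KD points lie above NB4 Control points for SNHG5, SNHG16, SNHG22 and SNHG26, and the K562 points overlap for these 4 genes.

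None of these differences passed a test. By the exact permutation test of the percentile, two-sided, SNHG5, SNHG16, SNHG22 and SNHG26 reached p = 0.1 within NB4, the smallest that 3 against 3 allows and a value that 24.6% of 8937 genes also reached. With labels permuted within both lines, p was 0.05 for SNHG26 (exact permutation, reached by 9.71% of genes), 0.0833 for SNHG5 (15.1%), 0.217 for SNHG16 (32.4%) and 0.4 for SNHG22 (50.6%), where the smallest possible p is 0.0167. SNHG29 and SNHG21 had an exact permutation p of 0.3333 and 0.3.

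The limma fit on the log2 fold could test 5 host genes, those listed in all 10 Control and KD libraries, and called 0 of them in either line. In NB4 the log2 differences, KD minus Control, were 0.70 ± 0.30 (SE) for SNHG5, 0.67 ± 0.45 for SNHG22, 0.41 ± 0.18 for SNHG26, 0.33 ± 0.25 for SNHG29 and 0.12 ± 0.20 for SNHG16. The adjusted p ranged from 0.276 to 0.8 in limma, and 2 of the 5 had an unadjusted p under 0.05, as did 1136 of all 7161 genes (15.9%). Of all genes 40 were called, or 0.559%, and leaving out any 1 of the 10 libraries left between 0 and 9 calls. The median of the 5 was 0.41, against -0.0042 over all genes. In K562 their log2 differences ran from -0.05 for SNHG29 to 0.32 for SNHG5, and limma called 0 of 7161 genes (171 with an unadjusted p under 0.05). The mean effect over both lines and the difference of the effects between lines likewise called 0% of genes, with 589 and 494 at an unadjusted p under 0.05. For the difference between lines the adjusted p of the 5 genes was 0.823 to 0.993 in limma.

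Depth moved with the NB4 groups. The KD lists held 36777 to 39803 peaks against 29609 to 33497 in Control, and the depth recovered from the lists, in Mreads, was 16.8 to 21.9 in KD against 10.8 and 14.1 in the 2 Control libraries with whole pileups. At SNHG26 the pileup was 42 and 46 reads in those 2 Control libraries and 90, 88 and 76 in KD. In K562 the Control lists (14.8 and 19.5) and KD lists (16.4 and 12.6) overlapped in depth. The part of depth in the NB4 differences was not tested, nor was that of the local mean at SCARNA17 in the SNHG22 difference.

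NB4 and K562 were also compared in Control cells. Of the same 5 host genes limma called 0, where 26.6% of all genes were called. The log2 differences, NB4 minus K562, lay between -0.33 for SNHG16 and 0.08 for SNHG26, and the adjusted p between 0.301 and 0.781 in limma, and 0 of the 5 had an unadjusted p under 0.05, against 2845 of all 7161 genes (39.7%). Because the leading region of SNHG29 was not the same in both lines, its value of -0.31 ± 0.28 (SE) compares different peaks. Without centring 4 of the 5 were called, and all 4 were then lower in NB4, SNHG26 included, whose centred value had the other sign, while 4357 of all 7161 genes were called under that setting.

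Genes that act on snoRNAs or on spliced host RNAs were described by the presence of peaks. Of the 4 box C/D proteins, SNU13 was in all 14 lists, and NOP56, FBL and NOP58 were in 13, 10 and 7. Of the 4 box H/ACA proteins none was in all 14, and DKC1, the pseudouridine synthase, was in 5. Of 10 snoRNP assembly factors 2 were in all 14, ZNHIT6 and RUVBL1. Of 10 genes of nonsense-mediated decay, 9 were in all 14, with median leading percentiles of 97.5 for UPF1 and 96.3 for SMG1, and SMG9 was in 12.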

How the data were processed

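Members and gene lists were chosen with earlier results of these data known. Chromatin-associated RNA was measured by m6A IP in 14 libraries, and the 14 input libraries are not analysed here. Per the study's methods, reads were trimmed with Trimmomatic 0.39, aligned to hg38 with HISAT 2.1.0 and split by strand with SAMtools 1.9, and MACS2 called peaks per strand and library with reads extended to 150 bases. Whether inputs served as background was not given in the sources used here. In the deposited lists the fold is the authors' ratio of summit pileup to local mean, and the -log10 p-value and -log10 q-value are the authors' MACS2 output. The deposited score, 10 times that q-value measure cut to an integer, was not used.

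Summits were assigned with GENCODE release 44 and, for snoRNAs missing there, 14 RefSeq entries. Pileups and local means were solved from fold and p-value. They were whole (within 0.05) at 100% of summits in 11 libraries. For NB4 Control 3 and both HepG2 libraries only 9.28% to 10.3% were whole, and rescaled reads were assumed. Depth (in Mreads, or megareads) is the local mean most often found on each strand, multiplied by the genome size of 130000000 and divided by 150 bases. The log2 fold of the leading summit, centred on the library median over the genes tested, was fitted with limma 3.58.1 (R 4.3.3), with Benjamini-Hochberg adjustment over all genes and a threshold of 0.05. The Control and KD fit used 10 libraries and 7161 genes with a summit in each, and the WT fit 14 libraries and 5878 genes. Exact permutation tests used 120 arrangements within both lines, 20 within NB4 and 6 within K562, with a missing summit at percentile 0. Scripts were tested on simulated data. Groups counted as not overlapping were compared over genes with a summit in 50% or more of a line's Control and KD libraries. Values in every library are given for GAS5, for members in all 14 lists, for members in every library of 1 line and none of another, for members called by limma, and for members without overlap in both lines. SNHG22, outside this rule, was added after its values were seen. Python 3.11.15, pandas 2.3.3, scipy 1.17.1 and matplotlib 3.10.9 were used. Alternatives are in the closing section. The sequence of the SNHG29 region in intron 4 is not reported here.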

Additional observations from a re-analysis of the deposited data

Results flagged for a closer look

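Host genes numbering 3 had no peak on their own strand and had one on the opposite strand, data that the comparisons did not use. At GAS5 this was seen in 6 libraries, all K562, 72 to 109 bases upstream of the gene start in ZBTB37, with percentiles of 66.6 to 73.8. At SNHG8 it was seen in 6 libraries, all NB4, within PRSS12, with percentiles of 63.1 to 82.8. At SNHG1 it was seen in 6 libraries, 5 of K562 and 1 of NB4, upstream of the start in SLC3A2, with percentiles of 16.8 to 46.8. No test was made.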

How the results depend on the processing

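Of the host genes tested, limma called 0 of 5 between NB4 and K562 Control, but 3 on the logit of the rank percentile (2568 of all 7161 genes) and 4 without centring (4357). For SNHG26 that difference turned from 0.08 to -1.63 on the logit scale and -0.79 without centring, and for SNHG29 from -0.31 to 6.11 on the logit scale. Between K562 WT and HepG2 WT, 1 was called, against 0 with equal list sizes, 3 without centring (4822 of all 5878 genes) and 0 to 1 when single libraries were left out. There SNHG5 turned from -0.45 to 0.76 without centring, and SNHG16 from 0.79 to -0.78 on the logit scale. The causes were not tested.

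With the replicate block 0 host genes were called between WT lines (SNHG16 adjusted p = 0.102, limma) and 0 of 7161 genes between NB4 KD and Control, against 40 without it. The labels link same-numbered libraries by number only. Their deviations from group means correlated at -0.02 in K562 and at -0.05, -0.02 and -0.11 in NB4. With 2 libraries in a K562 group the deviations mirror each other, so all K562 pairs give 1 value up to its sign. These correlations cannot settle whether libraries were paired. The 40 calls became 13 with the highest fold as leading summit, 26 with missing values allowed, 0 without centring and 0 to 9 when single libraries were left out.

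Host gene peaks per library, 16.5 in K562 WT, 18 in K562 Control, 20 in K562 KD, 17.7 in NB4 Control and 15.7 in NB4 KD, became 9, 9.5, 8, 14.3 and 13.7 with equal list sizes. Counting peaks that overlap by 1 base gave 17.5, 19 and 16.3 in K562 WT, K562 Control and NB4 KD, and -log10 q of at least 5 gave 17.5 in K562 Control. The exonic share of summits was 26.2% by the transcript with the most exons, against 77.7%.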
